A study of Mus musculus with 6 samples.

Results

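The serpins are a family of peptidase inhibitors, named by a clade letter and a number, and 56 probe sets of 40 Serpin genes were measured in mouse cochlear sensory epithelia (CSE) at 2 stages. The members were all probe sets that the platform annotation assigned to a single gene whose symbol starts with Serpin, 56 of the 45101 probe sets of the array and 40 of its 18194 annotated genes. Total RNA came from Swiss Webster mice at postnatal day 3 (P3) and from adults aged 8 weeks, with 3 independent pools per stage. Each pool held 40 CSE of 20 mice, so an array gives the mean of a pool and not the spread between animals. The methods describe the CSE as what remained after the otic capsule, modiolus, spiral ligament and stria vascularis were taken away, with the greater and lesser epithelial ridges still present at P3 and the inner sulcus and interdental cells in the adult. The labels and methods name no genetic change or treatment, and stage was the only factor compared. The p-values measure the spread between 3 pools.

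Most serpins trap a serine or cysteine peptidase through an exposed reactive loop. The peptidase cuts the loop, stays bound to it and is carried across the folded inhibitor, which is thereby used up. Clade a holds mainly plasma proteins such as the alpha-1-antitrypsins, clade b holds intracellular inhibitors, and a few members such as Serpinh1, Serpinf1 and Serpinb5 do not inhibit peptidases in this way. In the ear, loss of Serpinb6a in mice and of its human relative leads to hearing loss.

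Signals are MAS5.0 intensities on a linear scale, and a probe set counted as above background on an array where it exceeded the 90th percentile of 83 probe sets of olfactory, vomeronasal and bitter taste receptors. This level was 34.5 on P3 replicate 1, the other 5 arrays having 6.29 to 16.3. P3 replicate 1 stood apart, with a 3' to 5' signal ratio of 82.0 for the Gapdh controls and 50.5 for the beta-actin controls, against 0.707 to 2.07 and 1.38 to 4.18 on the other arrays, a measure that rises when RNA is degraded. Of 8 hair cell markers, 7 were above background on at least 3 arrays, with Slc26a5, the motor protein of outer hair cells, as the exception, and all 8 supporting cell markers were. The summed signal of 10 granulocyte markers was 131 to 431 at P3 and 3934 to 17710.3 in the adult, that of 6 pituitary markers 47.5 to 95.6 and 293 to 3503, and that of 8 neuronal markers 4494 to 5143 and 7240 to 19987. The summed signal of 7 fibroblast markers was 15902 to 37963 at P3 and 7921 to 9814 in the adult. The highest P3 sums of the granulocyte, pituitary and fibroblast markers were those of P3 replicate 1. Of the 6 pituitary markers 3 were tested, with Prl and Gh called higher in the adult and Pomc not called. Prl was above background on the adult arrays alone. Of the other marker lists, 3 of 8 supporting cell genes were called higher at P3 and 1 in the adult. Counts were 1 and 1 for 7 macrophage genes, 1 and 1 for 8 neuronal genes, and 0 and 1 for 6 blood vessel genes. Of all probe sets tested, 3.87% were called higher at P3 and 3.39% in the adult. The tissue was measured in bulk, so fewer cells of a type and less RNA per cell cannot be told apart.

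Between P3 and the adult, 4 Serpin genes fell and 1 rose, a gene counting as called where any of its probe sets was. At the brightest probe set alone, as used for the gene lists, 3 of these 5 were called, without Serpinh1 and Serpinb5. Serpina3a, a member of the mouse antichymotrypsin-like cluster, was at least 37.3-fold higher at P3. Serpinh1, the collagen chaperone Hsp47, and Serpinf1, the pigment epithelium-derived factor, were 3.86-fold and 4.10-fold higher at P3, and Serpinb5, the epithelial protein maspin, was at least 3.47-fold higher at P3. Serping1, the C1 inhibitor of complement, was 3.29-fold higher in the adult. Calls required at least a 2-fold difference together with a limma adjusted p below 0.05, and folds are ratios of geometric means of 3 arrays. Differences between stages are given on the log2 scale as adult minus P3, so that negative values mean more signal at P3. Of the 20 Serpin probe sets tested, 5 were called, where 7.26% of all 29036 probe sets tested were called. Higher at P3 were 4, against 3.87% of all probe sets, and higher in the adult was 1, against 3.39%. On 7 of the 20 the arrays of the 2 stages did not overlap, a separation found for 31.1% of all probe sets tested. In 6 of them P3 was above the adult, as for 15.6% of all, and in 1 the adult was above P3, as for 15.5%. A probe set entered the test once 3 arrays, of either stage, exceeded their background level. Among the 20, 3 did so through P3 alone, those of Serpina3a and Serpinb5, and none through the adult alone. For these 3 a higher P3 signal was largely set by that requirement, so they add little to the counts at P3. Without P3 replicate 1 there were again 5 Serpin calls, where 9.78% of all probe sets were called, with the second Serpinf1 probe set in place of that of Serpinb5. With adult replicate 3 left out there were 3, where 1.98% of all probe sets were called. By clade, 1 gene each of clades a, b, f and h was higher at P3 and the only gene of clade g was higher in the adult. None was called in clades d and i, with 1 gene tested in each, and the only gene of clade c was not tested. The median log2 difference (adult minus P3) of the 14 Serpin genes tested, each at its brightest probe set, was 0.05, beside -0.04 for all 13743 genes. Without adult replicate 1 this median was -0.59, and it was also below 0 without a filter on dim probe sets (-0.37), with quantile normalization (-0.01) and with P3 replicate 2 (-0.22) or 3 (-0.14) left out.

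**Figure D1:**
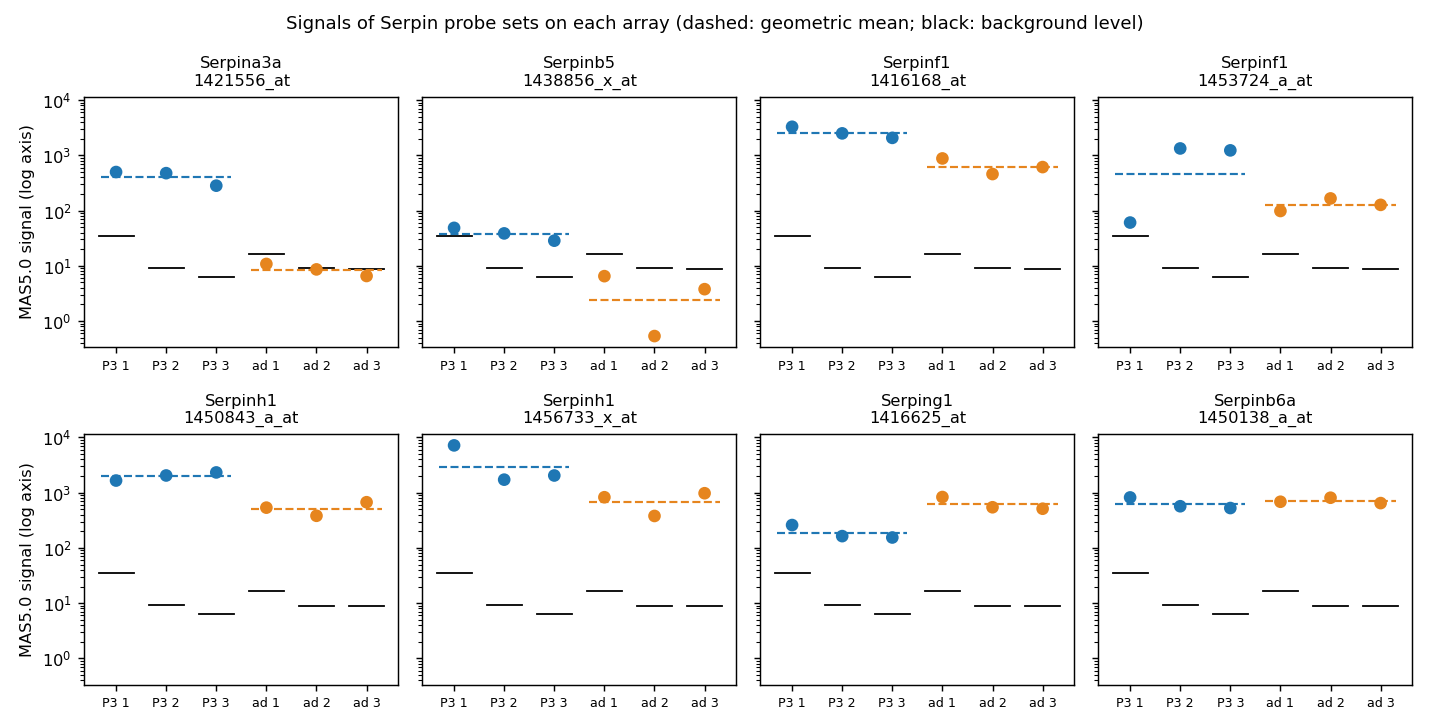
MAS5.0 signal (log axis) of 8 Serpin probe sets on each of the 3 P3 arrays (blue) and 3 adult arrays (orange, "ad"), with the geometric mean of each stage as a dashed line and the background level of each array as a black bar. The P3 arrays of Serpina3a lay between 282 and 498, with the adult arrays at 6.54 to 10.8 and below background, whereas the stages overlapped for Serpinb6a and for probe set 1453724_a_at of Serpinf1.

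The 4 genes that were higher at P3 lie on 4 chromosomes, and their sequences before the transcription start are shown because all 4 were higher at P3. Each is the RefSeq sequence (build GRCm38.p6) of the 250 bases before the start, written 5' to 3' on the gene's strand, for Serpina3a at chr12:104112474-104112723 (+ strand), Serpinb5 at chr1:106860925-106861174 (+ strand), Serpinf1 at chr11:75422624-75422873 (- strand) and Serpinh1 at chr7:99353240-99353489 (- strand). Capitals mark matches on either strand to the core of the TATA box, spelled TATAAA, to that of the NF-Y site, spelled CCAAT, or to that of the Sp1 site, spelled GGGCGG.
Serpina3a: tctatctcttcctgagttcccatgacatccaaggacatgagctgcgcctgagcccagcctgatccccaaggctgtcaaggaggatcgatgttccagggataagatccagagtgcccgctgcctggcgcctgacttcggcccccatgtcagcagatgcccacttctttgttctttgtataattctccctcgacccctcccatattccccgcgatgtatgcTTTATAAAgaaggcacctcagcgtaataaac
Serpinb5: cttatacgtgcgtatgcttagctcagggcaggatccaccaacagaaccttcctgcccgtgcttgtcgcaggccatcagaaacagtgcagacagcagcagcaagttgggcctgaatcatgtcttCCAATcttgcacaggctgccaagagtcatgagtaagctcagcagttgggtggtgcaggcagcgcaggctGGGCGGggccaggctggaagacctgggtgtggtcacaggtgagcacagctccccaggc
Serpinf1: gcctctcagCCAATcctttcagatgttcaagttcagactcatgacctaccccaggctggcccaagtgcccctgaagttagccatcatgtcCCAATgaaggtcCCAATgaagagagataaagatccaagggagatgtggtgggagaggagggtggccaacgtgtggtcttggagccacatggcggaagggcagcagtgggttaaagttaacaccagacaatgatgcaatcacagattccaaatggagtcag
Serpinh1: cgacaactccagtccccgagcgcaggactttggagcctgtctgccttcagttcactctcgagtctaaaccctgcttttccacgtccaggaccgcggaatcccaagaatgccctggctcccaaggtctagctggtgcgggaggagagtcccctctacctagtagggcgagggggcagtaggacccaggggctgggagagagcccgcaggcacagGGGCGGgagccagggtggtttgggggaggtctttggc

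The 4 sequences shared no one of these motifs. Serpina3a held TATAAA on both strands, in overlapping matches whose first bases lay 29 and 31 bases before the start. Serpinh1 held GGGCGG at 37 bases before the start. Serpinb5 held GGGCGG at 58 and CCAAT at 127 bases, and Serpinf1 held CCAAT at 148, 160 and 241 bases before the start. Of 32851 RefSeq promoter windows of the same length, 12.4% held TATAAA, 33.8% CCAAT and 32.7% GGGCGG. Of the 40 Serpin genes 34 had an entry, with 40 windows, of which 10 held TATAAA, 14 CCAAT and 6 GGGCGG. A match gives letters in a window and not a site in use.

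Serpina3a (probe set 1421556_at) belongs to a mouse group of genes related to human alpha-1-antichymotrypsin. Its signals were 498, 475 and 282 at P3 and 10.8, 8.60 and 6.54 in the adult, in the order of the replicate numbers as everywhere else. All 3 P3 arrays were above background and none of the adult arrays was, so the probe set passed the requirement of 3 arrays through P3 alone. The mean was 419 ± 119 at P3 and 8.65 ± 2.13 in the adult (SD, n = 3 arrays), a difference of -5.58 in log2 units with an SE of 0.36 (limma adjusted p = 0.000489). With any single array left out it was between -5.84 and -5.40, and the gene stayed called, at an adjusted p of 0.00124 without P3 replicate 1. With the mean background added to every signal the log2 difference was -4.22. Serpina3a is among the genes that the study itself selected from these arrays, so that its place among the called genes is not independent of that selection.

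The other clade a genes gave little signal at either stage. Clade a held 18 probe sets of 14 genes, of which 13 genes lie on chromosome 12 and Serpina7, the thyroxine-binding globulin, on the X chromosome. On no array were 10 of the 18 above background, and 3 passed the requirement of 3 arrays. Of the cluster neighbours of Serpina3a, Serpina3i was above background on no array, and Serpina3n, an inducible antichymotrypsin of glia and liver, on adult replicate 2 alone, with a signal of 14.5 there and 3.70 to 7.26 elsewhere. Serpina1c, an alpha-1-antitrypsin of plasma, had signals of 1.43, 32.2 and 11.1 at P3 and 63.2, 20.3 and 9.88 in the adult. The stages overlapped, and its log2 difference was 1.54 with a 95% interval of -1.15 to 4.23. Serpina9, known from germinal centre B cells, gave 26.8, 10.7 and 14.0 at P3 and 72.2, 8.87 and 6.61 in the adult, with an interval of -2.11 to 2.16. These intervals hold fold changes beyond 4-fold in both or in 1 direction, so that the data do not settle either gene. The alpha-1-antitrypsin genes are near-identical copies, and a signal cannot be assigned to 1 of them with certainty. Serpina1b, another of these copies, was above background on 1 and 2 adult arrays with its 2 probe sets and on no P3 array, and it was not tested.

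**Figure D2:**
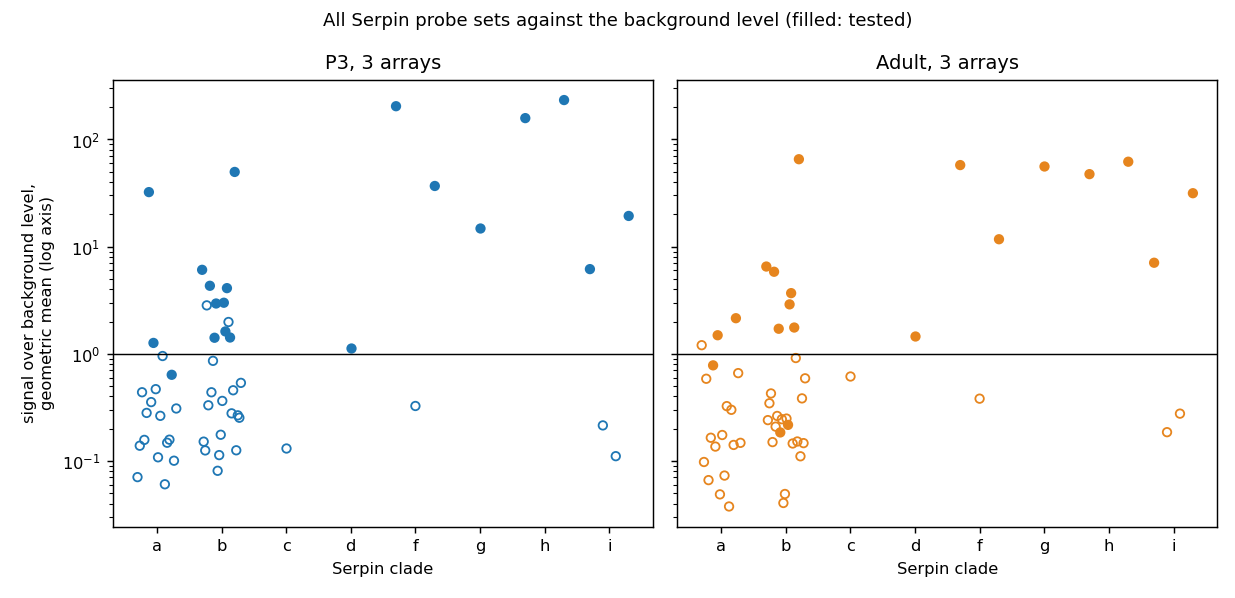
Signal over the array's background level (geometric mean of 3 arrays, log axis) of all 56 Serpin probe sets by clade, at P3 (left, blue) and in the adult (right, orange), with the background level at 1 and filled points for the 20 tested probe sets. Most of the 18 points of clade a and of the 26 of clade b lie below the line, while clades f, g and h each hold points far above it.

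Serpinh1 encodes a chaperone of the endoplasmic reticulum that binds procollagen and has no peptidase target. With probe set 1450843_a_at its signals were 1657, 2047 and 2325 at P3 and 536, 382 and 672 in the adult. The lowest P3 array lay above the highest adult array. The means were 2009.6 ± 335 and 529.6 ± 145 (SD, n = 3), or -1.95 in log2 units with an SE of 0.27 (limma adjusted p = 0.00580), which was -2.08 without P3 replicate 1. The call was lost when each array was scaled to the same median (limma adjusted p = 0.0569), where the other probe set of the gene was called (0.0467). Probe set 1456733_x_at of the same gene gave 7179, 1720.2 and 2046 at P3 and 827, 379 and 977 in the adult. It did not overlap between stages either, but P3 replicate 1 lay far above the other P3 arrays and the probe set was not called (log2 difference -2.12, SE 0.57, limma adjusted p = 0.0590). It was called in 6 of 16 other settings and not in the other 10. The ratio of this probe set to the first was 4.33 on P3 replicate 1 against 0.840 to 1.54 elsewhere, and its log2 difference was -1.48 without P3 replicate 1 (adjusted p = 0.0544). With both probe sets averaged the gene differed by -2.04 in log2 units (limma adjusted p = 0.00995).

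Collagen synthesis genes, the partners of Serpinh1, also held genes that fell. Of 22 listed, 21 were tested, 10 were called higher at P3, against 3.87% of all probe sets tested, while none was in the adult, with a median log2 difference of -1.66, beside -0.04 for all genes. Without P3 replicate 1 the count was 13, and with any other array left out it was 10. Col9a1, a collagen IX chain of cartilage and of the tectorial membrane, fell by 3.89 on the log2 scale (limma adjusted p = 0.00783), with values of -4.35 to -3.18 when single arrays were left out. Col3a1, the collagen III chain, fell by 3.58 and Col2a1, the collagen II chain, by 3.29. Col4a2, a collagen IV chain of basement membranes, fell by 3.04. P4ha2 and Crtap were picked from the enzymes of the list and their partners after their values were seen. P4ha2, a subunit of the prolyl hydroxylase that stabilises collagen helices, fell by 2.53. Crtap, a partner of another prolyl hydroxylase, fell by 1.66. In the same group P4ha1 (-0.37), P4hb (-0.53), P3h1 (-1.09), Ppib (-1.19), Plod1 (-0.60) and Plod2 (-0.90) were not called. Of 7 fibroblast markers, of which Col1a1, Col1a2 and Col3a1 are also in the collagen list, Col3a1 and Postn were called, both higher at P3. The log2 differences of all 7 were negative, with a median of -1.57. Col1a1 (-1.71), Col1a2 (-1.57), Lum (-1.26) and Pdgfra (-0.83) were not called. Dcn, the fibroblast proteoglycan decorin, differed by -0.07 in log2 units and was not called either. The part of fibroblasts in the fall of Serpinh1 and the collagen genes was not tested.

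Serpinf1, a secreted factor that restrains blood vessel growth and supports neurons, was measured by 2 probe sets that differed on P3 replicate 1. With 1416168_at its signals were 3286, 2497 and 2071 at P3 and 878, 458 and 612 in the adult. The stages did not overlap. The mean fell from 2618 ± 617 to 649 ± 212 (SD, n = 3), or -2.04 in log2 units with an SE of 0.31 (limma adjusted p = 0.00726). The log2 difference was -1.86 without P3 replicate 1 (adjusted p = 0.0106), and the call was lost without adult replicate 3 (adjusted p = 0.0515). With 1453724_a_at the signals were 60.6, 1332 and 1229 at P3 and 98.2, 166 and 127 in the adult. P3 replicates 2 and 3 were high while P3 replicate 1 lay below every adult array. This probe set was not called (log2 difference -1.86, 95% interval -4.22 to 0.49), and without P3 replicate 1 it was called, the difference being -3.33 (limma adjusted p = 0.00160). Averaged over both, the gene differed by -1.95 in log2 units (limma adjusted p = 0.0381). The ratio of the first probe set to the second was 54.2 on P3 replicate 1, 1.68 to 1.88 on the other P3 arrays and 2.76 to 8.94 on the adult arrays. This ratio moved with the 3' to 5' ratios of the control genes on P3 replicate 1, and the part of RNA quality in it was not tested. Serpinf2, the plasmin inhibitor alpha-2-antiplasmin and neighbour of Serpinf1 on chromosome 11, was above background on adult replicate 2 alone.

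Pnpla2, a lipase that has been described as a receptor of the Serpinf1 protein, went the other way. It rose from 73.4 ± 16.4 to 188 ± 57.8 (SD, n = 3), or 1.33 in log2 units (limma adjusted p = 0.0442). It was no longer called when P3 replicate 2 or 3 was left out (adjusted p = 0.145 and 0.114) or adult replicate 1 or 3 (0.116 and 0.197). Pnpla2 was the single called gene among the 10 tested genes of serpin receptors and cofactors, where 3.39% of all probe sets were called higher in the adult. The median log2 difference of the 10 was 0.22, beside -0.04 for all genes.

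**Figure D3:**
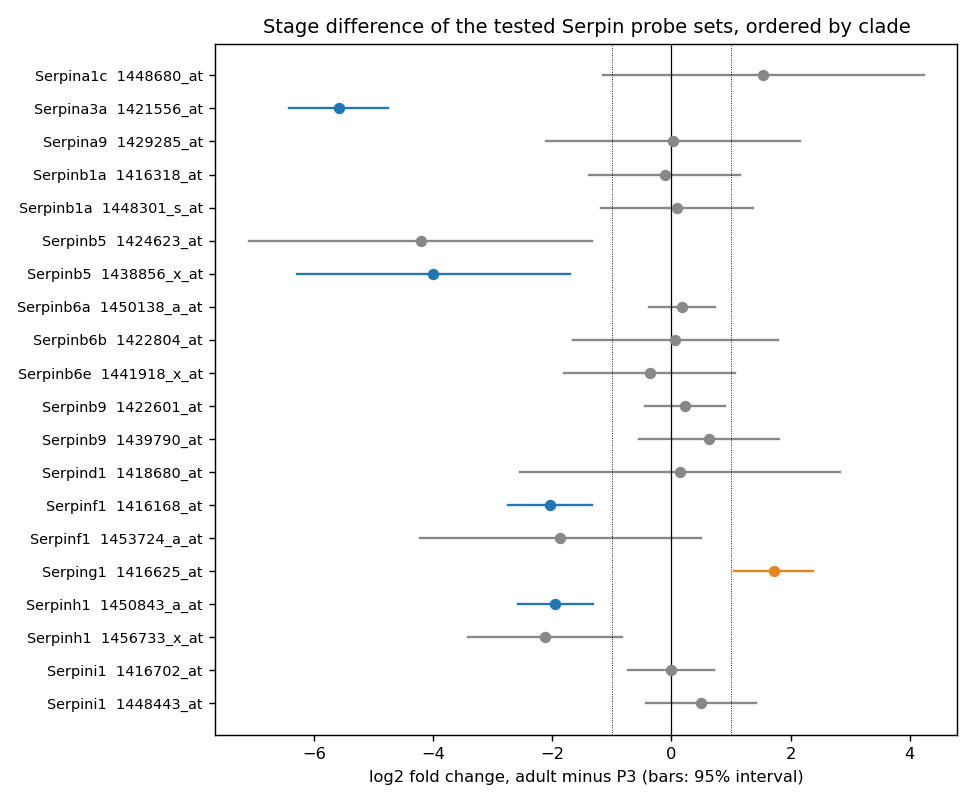
Log2 fold change, adult minus P3, with its 95% interval for the 20 tested Serpin probe sets, ordered by clade, in blue where called higher at P3, orange where called higher in the adult and grey where not called. The dotted lines mark a 2-fold difference, and the 4 blue intervals lie wholly below -1, while the grey intervals of Serpina1c and Serpind1 reach past a 4-fold difference in at least 1 direction.

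Serping1, the inhibitor of the complement peptidases C1r and C1s and of plasma kallikrein, was the only member called higher in the adult. Its signals were 259, 163 and 154 at P3 and 834, 544 and 512 in the adult. Replicate 1 was the highest array of each stage, and the stages did not overlap. The mean rose from 192 ± 58.1 to 630.0 ± 177 (SD, n = 3), or 1.72 in log2 units with an SE of 0.29 (limma adjusted p = 0.0117). It was 1.95 without P3 replicate 1 and between 1.50 and 1.95 with any array left out, always called, and the adjusted p was 0.0566 without the intensity trend. Of its peptidase targets and their relatives 3 were tested and none was called, while Klkb1, the gene of plasma kallikrein, was not tested. C1s1 differed by 0.00 in log2 units (limma adjusted p = 0.999), C1ra by 1.14 (0.360) and Masp1, a peptidase of the lectin pathway, by -1.14 (0.120).

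Serpinb5, a clade b protein of epithelia that does not inhibit peptidases, was measured by 4 probe sets, of which 2 were tested and 1 was called. With 1438856_x_at its signals were 48.6, 38.6 and 28.5 at P3 and 6.49, 0.534 and 3.77 in the adult, a called difference with a 95% interval of -6.29 to -1.71 in log2 units (limma adjusted p = 0.0475). With 1424623_at they were 59.5, 34.4 and 24.9 at P3 and 0.254, 7.55 and 4.19 in the adult, the difference being -4.21 (SE 1.26, adjusted p = 0.0831), so that this probe set was not called. No adult array was above background for any of the 4 probe sets, and the stages did not overlap for the 2 tested ones. Because these adult values lie below background, the folds are lower bounds, of 3.47 for the called probe set and 3.41 for the other. The 2 further probe sets, 1421752_a_at and 1441941_x_at, were above background on P3 replicates 2 and 3 and were not tested, with P3 means of 35.8 ± 4.27 and 25.4 ± 6.40 (SD, n = 3). The tested ones passed the requirement of 3 arrays through the P3 arrays alone.

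The call of Serpinb5 was the least steady of the 5. It was lost when P3 replicate 1, 2 or 3 was left out (limma adjusted p = 0.0779, 0.151 and 0.125) and when adult replicate 3 was (0.120), and the log2 difference ranged from -4.73 (adult replicate 1 left out) to -2.93 (adult replicate 2 left out). With the mean background added it was -1.57. Averaged over the 2 tested probe sets, the gene was called at -4.10 in log2 units (limma adjusted p = 0.0127), again with adult signals below background. Of 7 keratinocyte markers 5 were tested and 1 was called higher at P3, where 3.87% of all probe sets were. This was Krt1, a keratin of upper skin layers, at least 2.49-fold higher and with no adult array above background. Krt1 thus passed the requirement of 3 arrays through P3 alone. The summed signal of the 7 was 242 to 466 at P3 and 185 to 259 in the adult, the 466 being that of P3 replicate 1, where background was highest. The part of these markers in the level of Serpinb5 was not tested.

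**Figure D4:**
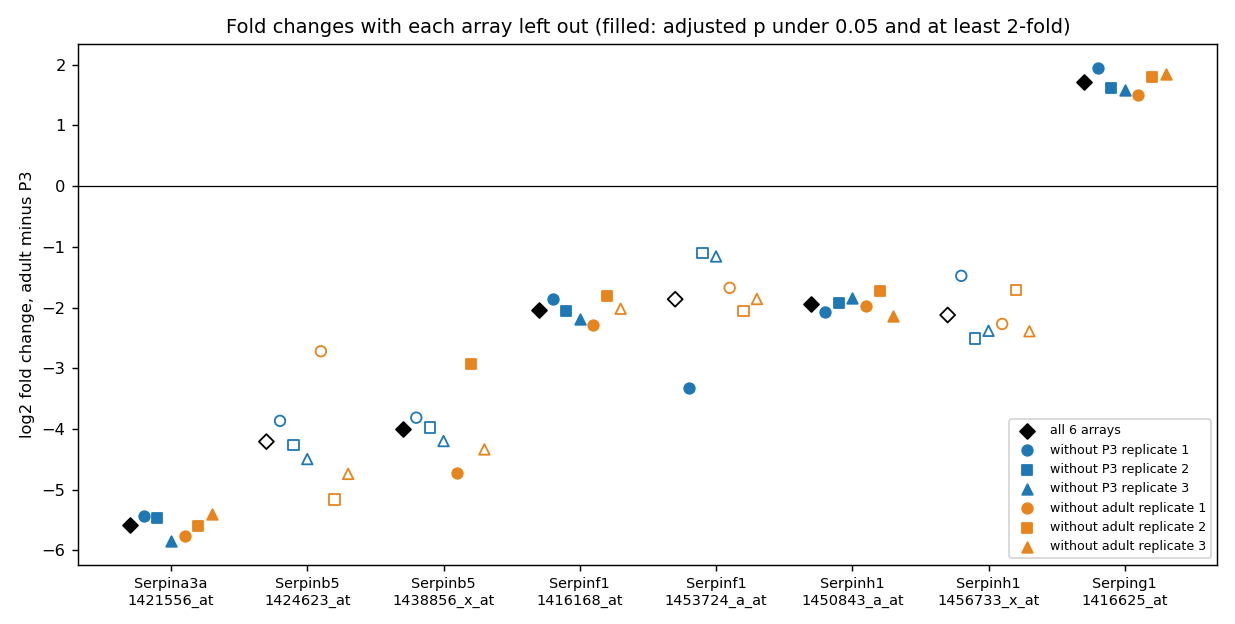
The log2 difference between the stages, adult minus P3, of 8 probe sets of the 5 called genes with all 6 arrays (black diamond) and with each P3 array (blue) or adult array (orange) left out, filled where called. Serpina3a, Serping1 and probe set 1450843_a_at of Serpinh1 stayed called throughout, and probe set 1453724_a_at of Serpinf1 moved from -1.86 to -3.33 and was called without P3 replicate 1.

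Serpinb6a, an intracellular inhibitor needed for hearing in mice, was well above background on all 6 arrays. Its signals were 820.0, 568 and 527 at P3 and 685, 810.2 and 647 in the adult. The stages overlapped, and the highest and lowest arrays were both of P3. The log2 difference was 0.18 with a 95% interval of -0.37 to 0.74, so that a difference of 2-fold or more lies outside the interval. Without P3 replicate 1 it was 0.38, and it was not called under any setting. Its paralogues gave weaker information, with intervals of -1.65 to 1.79 for Serpinb6b and -1.81 to 1.07 for Serpinb6e, whose probe set may take up related sequences, and Serpinb6c was above background on no array.

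The inhibitors of the granule peptidases of leukocytes overlapped between the stages. Serpinb1a, which inhibits neutrophil elastase, cathepsin G and proteinase 3, had signals of 81.1, 70.8 and 77.6 at P3 and 84.9, 151 and 27.8 in the adult. The adult arrays spread on both sides of the P3 arrays, the difference being -0.11 (95% interval -1.38 to 1.16). Its other probe set, 1448301_s_at, differed by 0.10 in log2 units (-1.17 to 1.37). Serpinb9, the inhibitor of granzyme B, gave 61.7, 46.9 and 55.0 at P3 and 68.1, 62.7 and 59.4 in the adult with 1422601_at, a difference of 0.22 in log2 units with an interval of -0.45 to 0.90 that stays within a 2-fold difference. With 1439790_at the interval was -0.55 to 1.81. Serpinb1a fell by 1.08 on the log2 scale and Serpinb9 rose by 1.12 with 1439790_at when the arrays were weighted by quality (limma adjusted p = 0.0421 and 0.00742), and neither was called in any other setting.

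Elane, the neutrophil elastase, exceeded its P3 level at least 5.13-fold in the adult (limma adjusted p = 0.00395), with means of 2.37 ± 0.627 at P3 and 66.3 ± 17.4 in the adult (SD, n = 3), and was called with any array left out. Ctsg, cathepsin G, was at least 4.14-fold higher (limma adjusted p = 0.0182), a call lost when any adult replicate was left out (adjusted p = 0.0591, 0.0889 and 0.0612). Both genes were above background on the adult arrays alone, so they passed the requirement of 3 arrays only through the stage where they were high. Prtn3, proteinase 3, differed by 2.04 in log2 units and was not called (adjusted p = 0.119). Of 10 granulocyte markers, which include Elane, Ctsg and Prtn3, 9 were called higher in the adult, where 3.39% of all probe sets were. The part of these markers in the difference was not tested. Gzmb, granzyme B, was not above background on enough arrays to be tested.

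Over the whole list of 37 peptidases that serpins inhibit or meet, 22 were tested, 4 were called at P3 (3.87% of all probe sets were) and 3 were called in the adult (3.39% of all), with a median log2 difference of 0.02. With P3 replicate 2, P3 replicate 3 or adult replicate 3 left out the count at P3 was 1, and without adult replicate 3 the count in the adult was 1 as well. Of all probe sets, 1.98% to 3.26% were called in these settings, in either direction. Klk8, a kallikrein of epidermis and brain, fell by 3.33 on the log2 scale (limma adjusted p = 0.0131). Its adult mean was 7.67 ± 4.05 (SD, n = 3) with 1 adult array above background, so the size of the fall is uncertain. Klk8 was no longer called when P3 replicate 2 or 3 was left out (limma adjusted p = 0.0758 and 0.0602). Ctsk, the collagen-degrading cathepsin K, fell by 2.81 (adjusted p = 0.00932, and 0.0562 without adult replicate 3).

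**Figure D5:**
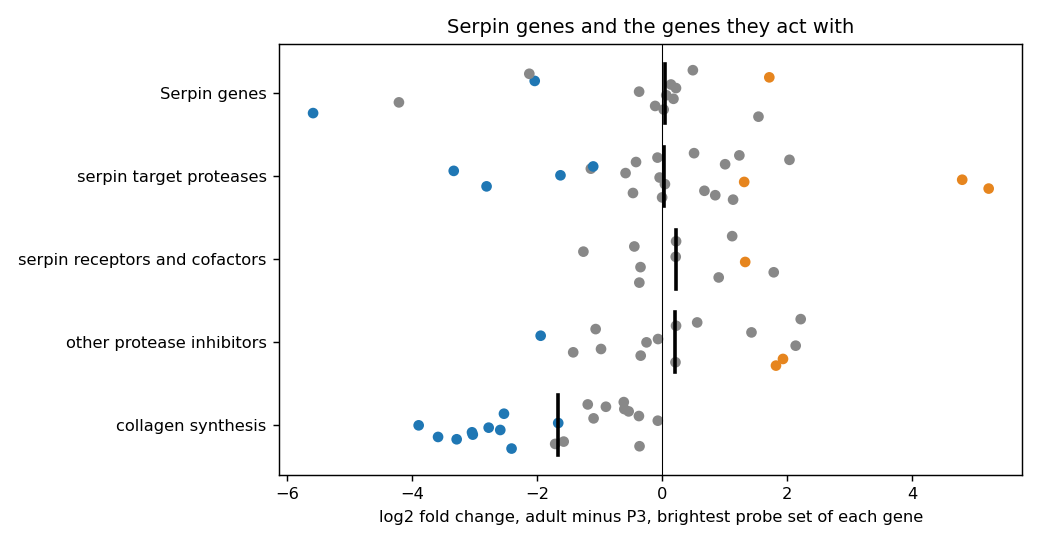
Each point is the log2 fold change (adult minus P3) of a tested gene (brightest probe set) among the Serpin genes and 4 lists of genes they act with or beside, with blue for genes called higher at P3, orange for those called higher in the adult, grey for the rest and a black line at each median. The median of collagen synthesis lay at -1.66, those of the other 4 groups between 0.02 and 0.22, and the brightest probe sets of Serpinh1 and Serpinb5 are grey.

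Serpini1, or neuroserpin, is made by neurons and inhibits tissue plasminogen activator. With 1448443_at its signals were 246, 228 and 256 at P3 and 675, 199 and 299 in the adult, with adult replicate 1 alone far above the rest. The log2 difference was 0.49 (95% interval -0.43 to 1.42) and was 0.00 with that array left out. With 1416702_at the signals were 59.3 to 89.0 at P3 and 60.4 to 96.8 in the adult, the difference being -0.01 with an interval of -0.74 to 0.71. A further probe set of the gene was above background on no array. Its target Plat, the tissue plasminogen activator, fell from 873 ± 143 to 404 ± 9.58 (SD, n = 3), or -1.10 in log2 units (limma adjusted p = 0.0185), no longer called when P3 replicate 2, P3 replicate 3 or adult replicate 3 was left out (0.0949, 0.0515 and 0.101).

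The serpins of blood clotting were at or near background. Serpinc1, antithrombin, was above background on no array. Serpind1, heparin cofactor II, an inhibitor of thrombin, had signals of 36.4, 8.98 and 9.03 at P3 and 71.8, 21.1 and 2.63 in the adult, and an interval of -2.54 to 2.83 that holds large differences in both directions. F2, the gene of thrombin, and Plg, that of plasmin, were not above background on enough arrays to be tested. Of 7 liver and plasma protein markers 1 was tested and none was called.

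In all, 36 of the 56 Serpin probe sets were not tested. On no array were 23 of them above background, on 1 array 8 and on 2 arrays 5. Of the 40 genes 26 had no tested probe set, among them 11 of the 14 clade a genes and 12 of the 18 clade b genes, and no order can be given to their signals. On P3 replicate 1 lay the highest signal of 22 of the 36, where the background level was also the highest. The 18 clade b genes lie in 2 groups, with 11 on chromosome 13 and 7 on chromosome 1. Of the chromosome 1 group, which holds several inhibitors of skin and other stratified epithelia, Serpinb5 was the only gene tested, and Serpinb2, Serpinb3a, Serpinb7, Serpinb8, Serpinb11 and Serpinb12 were above background on at most 2 arrays each.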

How the data were processed

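Total RNA pools of P3 and adult CSE were hybridized by the authors to Affymetrix Mouse Genome arrays, 1 array per pool. The deposited values are linear signal intensities from MAS5.0, which the authors scaled to a trimmed mean of 100 on each array. The submitters' processing notes give GCOS version 1.2 and the methods another version. Detection calls were not used here. All 6 columns matched a sample by name. Probe sets were named by the platform annotation of 2016. Those above the background level on at least 3 of 6 arrays were tested after log2 transformation (limma 3.58.1, R 4.3.3, intensity trend, stage as the only factor), and p-values were adjusted by Benjamini-Hochberg over all 29036. SE is limma's moderated standard error and SD that of the signals. The number of arrays limits the precision, since 3 against 3 cannot give an exact permutation p under 0.1. Where no array of the lower stage was above background, the fold was taken against signals raised to background and given as a lower bound. A gene in a list was represented by its brightest tested probe set.

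The members, lists, motifs and tests were chosen with earlier results of these data known. Named are all called Serpin probe sets, the bright ones, those of a gene that differ in call, and called list genes of largest change or that a named serpin inhibits. Probe sets ending in _x_at or _s_at can bind several transcripts. Alternatives were other normalizations, filters and handling of low signals, no trend, array quality weights, the replicate number as a block, SAM, the test of the methods, here on the probe sets above background and not on those with present calls, the mean over probe sets and each array left out in turn. The fit and SAM were tested on simulated data.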

Additional observations from a re-analysis of the deposited data

How the results depend on the processing

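Serpina3a kept its direction and its call in all 15 other settings that tested it, and Serpinf1 (1416168_at), Serping1 and Serpinh1 (1450843_a_at) in 15 of 16 each, whereas Serpinb5 (1438856_x_at) kept its call in 6 of 15. The number of Serpin probe sets called, 5, was 3 with at least 4 of 6 arrays required above background, where Serpina3a and Serpinb5 could not be tested, 3 without the intensity trend and 10 with array quality weights. Over all probe sets, 1987 of 26509 were called with 4 of 6 arrays. Of all 29036, 899 were called without the trend and 7593 with array weights. SAM called 7 Serpin probe sets, of which 6 were higher at P3, and 2805 of all 29036 probe sets tested. The clade b count of 1 became 0 with equal medians, without a filter, with 4 of 6 arrays, with background at the 95th percentile, with signals floored at background and without the trend, and 3 with array weights. Clade a had 0 with 4 of 6 arrays and clade g 0 without the trend. The median log2 difference of the Serpin genes was -0.63 with array weights. The peptidase counts were 2 at P3 with equal medians and without the trend, and in the adult 1 with 4 of 6 arrays and 6 with array weights. Of receptors and cofactors, the number higher in the adult was 0 with equal medians, without a filter and without the trend, 2 with floored signals and 3 with array weights. Of the other protease inhibitors, 0 were called in each direction with equal medians and without the trend, and 2 at P3 with array weights.

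With single arrays left out, 3 to 5 Serpin probe sets were called, where 1.98% to 9.78% of all probe sets were. The counts were 0 to 1 for genes of clades b and f, and for peptidases 1 to 4 at P3 and 1 to 4 in the adult. They were 0 to 1 for receptors or cofactors in the adult, and for other inhibitors 0 to 1 at P3 and 0 to 2 in the adult. The Serpin median lay between -0.59 and 0.31. The cause of these changes was not tested. With the replicate number as a block 2 receptors or cofactors were called in the adult, and 6 Serpin probe sets were, 5 of them shared. Over all probe sets 2649 were called in place of 2109. Arrays of the same number correlated in their deviations from the stage mean at 0.18, 0.21 and 0.08, and every array correlated best with its own number, a hint from the data and not from the design. In all, 562 probe sets were called with equal medians, 899 without the trend and 7593 with array weights. Values below the background level carry no order, which limits 36 of the 56 Serpin probe sets.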

Other observations

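A few protease inhibitors of other families were called. Of 15 tested, 2 were called higher in the adult (3.39% of all probe sets were) and 1 was called at P3 (3.87% of all). Their median log2 difference was 0.22, beside -0.04 for all genes. A2m, the plasma inhibitor alpha-2-macroglobulin, rose from 318 ± 53.3 to 1183 ± 451 (SD, n = 3), or 1.82 in log2 units (limma adjusted p = 0.0156), and lost its call without P3 replicate 3 (0.0568) and adult replicate 3 (0.0860). Cst6, a cystatin of epithelia, rose by 1.94 on the log2 scale (limma adjusted p = 0.0232, and 0.0680, 0.0689 and 0.129 without P3 replicate 3, adult replicate 2 and adult replicate 3). Tfpi, the inhibitor of the tissue factor pathway of clotting, fell by 1.94 (limma adjusted p = 0.0272, and 0.0670, 0.0680 and 0.117 without P3 replicate 2, adult replicate 2 and adult replicate 3). Without adult replicate 3 none of the 15 was called, where 1.98% of all probe sets were. The count in the adult was 0 without P3 replicate 3, where 3.15% of all probe sets were called in either direction.

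The 3 probe sets that the annotation assigns to several Serpin genes at once, 2 of the alpha-1-antitrypsin group and 1 of the Serpinb9 group, were above background on no array.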
